A study of Mus musculus with 9 samples.

Results

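This account covers the mouse genes of the G1 step of the cell cycle: the D-type cyclins Ccnd1, Ccnd2 and Ccnd3, the E-type cyclin Ccne1, the kinases Cdk4 and Cdk6, and the CDK inhibitors Cdkn1a, Cdkn1b, Cdkn2a and Cdkn2c. They are 10 of the 18193 genes named on the arrays. They were chosen by symbol, with earlier results of these data known. All 27 probe sets that carry one of these symbols were taken, of 45101 on the array. A probe set is a group of short probes that report 1 transcript or a few related ones.

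The cells were preSC, cultured preneoplastic neuroendocrine cells from the lungs of mice whose conditional alleles of Rb, p53 and p130 were deleted with Adeno-Cre virus, on a mixed C57BL/6 and 129/Sv background. The 4 groups were preSC given an L-Myc retrovirus (2 arrays), which the labels say had undergone transformation, preSC given a C-Myc retrovirus (2 arrays), preSC given an N-Myc retrovirus (2 arrays), and preSC without a Myc virus (3 arrays). All groups carry the 3 deletions and grew in RPMI1640 with 10% bovine growth serum. No age and no empty-virus group is given in the labels, the preSC and L-Myc samples are labelled polyA RNA, and the C-Myc and N-Myc samples are labelled total RNA.

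In mammalian cells, D-type cyclins switch on CDK4 and CDK6, which phosphorylate the retinoblastoma protein and its relatives, and cyclin E with CDK2 continues that step. The INK4 inhibitors (Cdkn2a, Cdkn2c) bind CDK4 and CDK6, whereas the CIP/KIP inhibitors (Cdkn1a, Cdkn1b) act on cyclin-CDK complexes, CDK2 complexes above all. Cdkn2a also encodes Arf, which stabilises p53, and Cdkn1a is a classical p53 target. MYC proteins bind the E-box sequence in DNA, and the human CDK4 gene is a known MYC target. Loss of the retinoblastoma protein is typical of small cell lung cancer, in which Rb-negative cells commonly hold high levels of p16Ink4a.

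Cdk4 was higher with each of the 3 Myc viruses than in preSC, by 0.53 to 1.01 on the log2 scale over its 3 probe sets. Cdkn1a fell by more than 2 log2 units with C-Myc and N-Myc, and its lower mean with L-Myc did not pass the test. Cdkn2a was called lower with L-Myc, Cdkn2c was called lower with N-Myc, and 1 of 3 Ccnd3 probe sets was called higher with N-Myc. At these probe sets the means with the other viruses moved the same way without a call. No member probe set was called between the viruses in the fit of all arrays. Ccne1, Cdkn1b and Ccnd1 passed the test in no comparison, and Ccnd2 and Cdk6 lay among the dim probe sets on all 9 arrays. Of the called changes, only those of Cdk4 with C-Myc at 2 probe sets passed under every alternative that included them.

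The RefSeq promoter windows of Cdk4 and Cdkn1a are shown because these genes were called at every one of several probe sets. Each window runs from 250 bases before to 50 bases after a RefSeq start in assembly GRCm38.p6 and is written 5′ to 3′ on the strand of the gene. Capitals mark CACGTG, the canonical E-box, which reads the same on both strands, or a match to the 20-base p53 response element consensus with at most 1 mismatch. The Cdk4 window lies at chr10:127063285-127063584 on the plus strand, and the Cdkn1a windows at chr17:29090729-29091028 (upstream start) and chr17:29093519-29093818 (downstream start), both on the plus strand.
Cdk4: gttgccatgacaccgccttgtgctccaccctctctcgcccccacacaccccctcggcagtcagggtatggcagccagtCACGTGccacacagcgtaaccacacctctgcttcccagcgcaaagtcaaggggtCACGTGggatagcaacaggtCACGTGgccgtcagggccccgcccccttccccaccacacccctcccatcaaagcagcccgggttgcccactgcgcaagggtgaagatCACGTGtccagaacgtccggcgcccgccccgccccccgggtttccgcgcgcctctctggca
Cdkn1a upstream start: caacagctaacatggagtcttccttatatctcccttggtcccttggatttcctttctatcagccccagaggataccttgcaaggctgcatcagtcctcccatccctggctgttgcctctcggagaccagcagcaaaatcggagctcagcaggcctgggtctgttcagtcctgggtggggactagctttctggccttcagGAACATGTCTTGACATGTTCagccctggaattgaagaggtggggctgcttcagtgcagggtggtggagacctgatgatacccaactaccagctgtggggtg
Cdkn1a downstream start: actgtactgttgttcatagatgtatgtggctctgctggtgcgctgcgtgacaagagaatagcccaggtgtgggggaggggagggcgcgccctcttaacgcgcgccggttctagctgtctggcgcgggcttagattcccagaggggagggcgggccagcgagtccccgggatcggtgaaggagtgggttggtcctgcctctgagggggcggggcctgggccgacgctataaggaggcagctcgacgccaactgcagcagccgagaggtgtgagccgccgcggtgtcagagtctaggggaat

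The Cdk4 window held 4 E-boxes. Of 32851 mouse promoter windows of the same length, 2349 (7.15%) held at least 1 E-box, 0.594% held at least 2 and 8 (0.0244%) held at least 4. The upstream Cdkn1a window held 1 match to the p53 element, found in 29 (0.0883%) of all windows, and the downstream window held none. The table gave 12 windows for 8 of the 10 genes. Of the others, 1 Cdkn2c window and the Cdk6 window held 1 E-box each, and 1 Cdkn2a window held 1 match to TTTCCCGC, TTTGGCGC, TTTCGCGC or TTTGCCGC, forms of the E2F motif searched on both strands and found in 2.26% of all windows. A match is a run of letters, and binding was not measured.

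Some arrays were far closer to each other than others. A difference over 2-fold was found at 13 probe sets between N-Myc 1 and N-Myc 2. Between preSC 1 and preSC 2 there were 29 such probe sets, and between preSC 3 and each of them 1907 and 1807. L-Myc 2 and C-Myc 2, which carry different viruses, differed at 41, while L-Myc 1 and 2 differed at 2249 and C-Myc 1 and 2 at 3032. C-Myc 1 differed from the N-Myc arrays at 193 and 182. The transcripts of the 3 Myc genes followed the labels at some probe sets and not at others, and the groups are named by their labels throughout. Mycl 1422087_at read 11.79 and 12.74 with L-Myc, 6.68 and 8.52 with C-Myc, and 6.98 and 7.24 with N-Myc, against 5.74, 5.61 and 5.39 in preSC. Mycl 1422088_at read 6.09 to 7.24 on the 6 transduced arrays, against 4.66 to 4.75 in preSC, and the brightest Mycl probe set, 1434777_at, was no higher with L-Myc (8.56 and 8.78) than in preSC (8.65 to 9.03). Mycn 1425922_a_at read 9.05 and 8.46 with N-Myc, against 5.79 to 6.39 on the other arrays. The brightest Mycn probe set, 1425923_at, was high in all transduced groups, at 12.92 and 13.33 with L-Myc, 13.54 and 13.08 with C-Myc, and 11.64 and 11.07 with N-Myc, against 6.37 to 6.89 in preSC, so it was lowest with N-Myc among the transduced. Mycn 1417155_at was lower with N-Myc (5.62 and 5.47) than in preSC (7.74 to 8.52). The 1 Myc probe set read 11.22 and 10.68 with C-Myc and also 11.96 and 11.40 with N-Myc, against 5.63 and 7.29 with L-Myc and 6.50 to 8.13 in preSC. Which parts of these transcripts the viruses carry was not analysed here.

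All 9 measured neuroendocrine markers were bright enough to be tested, and 3 were called higher and 2 lower with L-Myc, and 3 higher and 4 lower with each of C-Myc and N-Myc. Of the stromal list 4 of 9 genes were tested, with a mean level of 5.78 to 6.39 with L-Myc, 5.40 to 6.16 with C-Myc and 5.53 to 5.59 with N-Myc, against 6.02 to 6.27 in preSC. Its members did not move together: Dcn was high on L-Myc 2 (10.32), C-Myc 2 (9.69) and preSC 3 (9.32), against 5.29 to 6.86 elsewhere, Thy1 was lowest on those 3 arrays (3.97 to 4.22, against 5.04 to 6.49 elsewhere), and Col1a1, Col1a2, Col3a1, Lum and Postn were below the filter. Of the club, alveolar and ciliated list 6 of 7 were tested, with a mean level of 6.13 to 6.43 with L-Myc, 6.05 to 6.87 with C-Myc and at least 6.97 on both N-Myc arrays, against 6.27 to 6.64 in preSC. Sftpc read 10.59 to 11.10 on C-Myc 1 and the N-Myc arrays, against 6.06 to 8.42 elsewhere, while the alveolar gene Sftpb read 6.52 to 6.87 on all 9 arrays, and Ager read 5.76 to 6.20 on the transduced arrays, against 6.77 to 7.10 in preSC. Of the endothelial list 2 of 6 were tested, and Vwf read 6.95 to 8.63 on the transduced arrays, against 10.57 to 10.66 in preSC, while Pecam1 and Cdh5 were below the filter. Of the leukocyte list 3 of 7 were tested, and Lyz2 read 6.44 on L-Myc 2, 6.76 on C-Myc 2 and 5.61 on preSC 3, against 9.31 to 12.31 elsewhere, while Ptprc was below the filter.

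The control probe sets for 18S RNA read 8.22 to 9.35 on the 6 transduced arrays, against 12.88 to 13.91 on the 3 preSC arrays. The difference between 5′ and 3′ control probe sets was -1.27 to -0.99 for Dap, against -3.33 to -3.02 in preSC. For Actb it was -0.31 to -0.20, against -0.85 to -0.62 in preSC. Dap is a bacterial control transcript, so its difference is a sign of labelling, while that of Actb is a sign of RNA quality and labelling. These controls separate preSC from all transduced arrays and so move with every change against preSC, that of Cdk4 included. The comparisons of C-Myc and N-Myc with preSC also set total RNA against polyA RNA by label, and there the virus and the RNA label cannot be told apart. The same holds for the comparisons of L-Myc with C-Myc and with N-Myc. The comparisons of L-Myc with preSC and of C-Myc with N-Myc lie within 1 RNA label. The part of these differences in the changes below was not tested, and in bulk samples fewer cells of a type and less RNA per cell cannot be told apart.

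Values below are log2 RMA values, called levels, and changes are differences of group means with their standard error (SE) from 1 limma fit to all 9 arrays. A change was called where the Benjamini-Hochberg adjusted p over 29160 tested probe sets was under 0.05. The 3 comparisons with preSC share the preSC arrays, and levels of different probe sets are not comparable. Of the 27 probe sets, 17 (of 8 genes) were bright enough to be tested.

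With L-Myc, 3 of the 17 tested probe sets were called higher, against 11.6% of all tested probe sets, and 1 was called lower, against 10.4%. With C-Myc, 3 were called higher (background 15.1%) and 2 lower (background 14.6%). With N-Myc, 4 were called higher (background 17.3%) and 3 lower (background 17.3%). These shares of 17 lie near the backgrounds, and all 3 higher calls with L-Myc and with C-Myc are probe sets of 1 gene, Cdk4. The 2 groups did not overlap at 53.8% of all tested probe sets with L-Myc, 55.1% with C-Myc and 67.6% with N-Myc, so separation of groups of this size is common in these data.

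**Figure D1:**
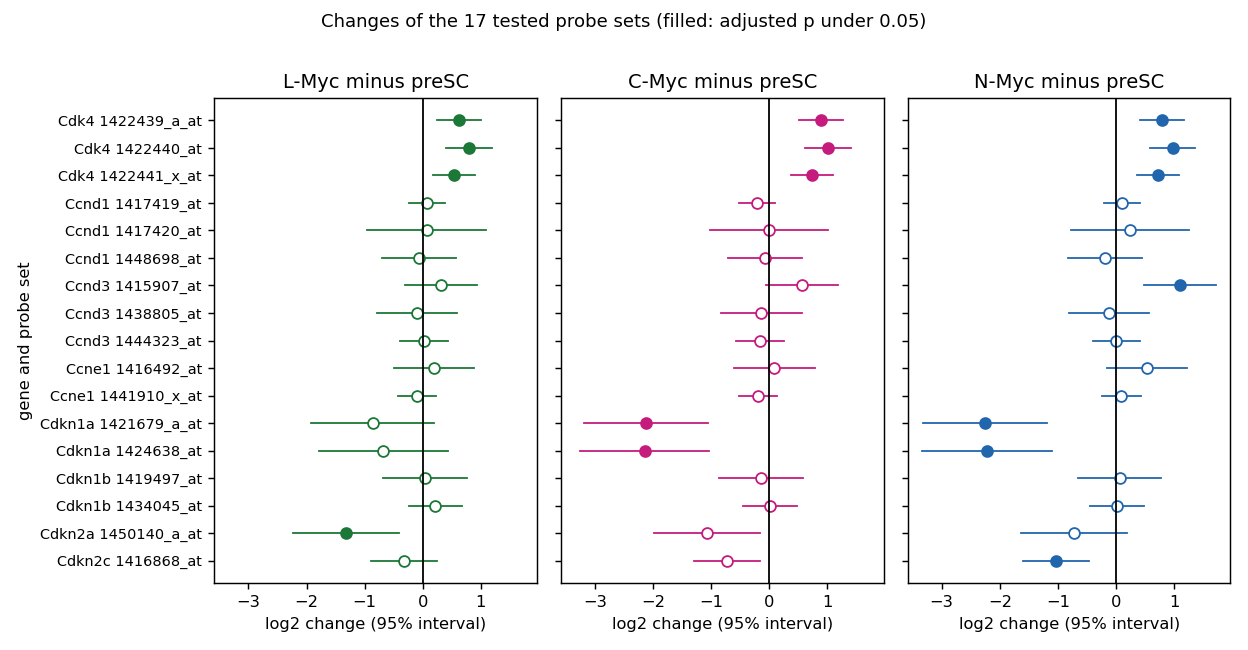
Log2 change with its 95% interval for each of the 17 tested probe sets, in panels for L-Myc, C-Myc and N-Myc minus preSC. Filled points passed the adjusted p threshold of 0.05: Cdk4 lies right of 0 in all 3 panels, and Cdkn1a lies near -2 with C-Myc and N-Myc but not with L-Myc.

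Cdk4 encodes the catalytic partner of the D-type cyclins. Its probe set 1422440_at read 11.37 and 11.80 with L-Myc, 11.78 and 11.83 with C-Myc, and 11.83 and 11.70 with N-Myc, against 10.94, 10.64 and 10.80 in preSC. Every transduced array was above every preSC array, and L-Myc 1 was the lowest of the transduced ones. The changes were 0.79 (SE 0.17, adjusted p = 0.0144, limma) with L-Myc, 1.01 (SE 0.17, adjusted p = 0.00477) with C-Myc and 0.97 (SE 0.17, adjusted p = 0.00493) with N-Myc, or folds of 1.73, 2.02 and 1.96.

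Probe set 1422439_a_at of Cdk4 read 11.36 and 11.71 with L-Myc, 11.78 and 11.84 with C-Myc, and 11.69 and 11.71 with N-Myc, against 11.12, 10.78 and 10.84 in preSC. Probe set 1422441_x_at read 11.72 and 12.05 with L-Myc, 12.08 and 12.09 with C-Myc, and 12.07 and 12.07 with N-Myc, against 11.54, 11.25 and 11.27 in preSC. Neither had any overlap with preSC. In limma the 1422439_a_at change was 0.62 (SE 0.16, adjusted p = 0.0320) with L-Myc, 0.89 (SE 0.16, adjusted p = 0.00677) with C-Myc and 0.79 (SE 0.16, adjusted p = 0.00950) with N-Myc. The 1422441_x_at change was 0.53 (SE 0.16, adjusted p = 0.0459) with L-Myc, 0.73 (SE 0.16, adjusted p = 0.0117) with C-Myc and 0.72 (SE 0.16, adjusted p = 0.0114) with N-Myc. Without L-Myc 2, the L-Myc changes of the 3 probe sets were 0.37 to 0.58 with limma adjusted p of 0.0922 to 0.249, and none was called. Without preSC 2 the L-Myc changes were 0.48 to 0.72 and none was called either (limma adjusted p = 0.0537 to 0.134). With preSC 1 and 2, and N-Myc 1 and 2, each averaged into 1 array, the Cdk4 calls with L-Myc (limma adjusted p = 0.0804 to 0.142) and with N-Myc (0.0996 to 0.132) were lost. In that averaging the C-Myc calls remained at 1422439_a_at (limma adjusted p = 0.0460) and 1422440_at (0.0415) and not at 1422441_x_at (0.0634). Without either N-Myc array, the N-Myc calls at 1422439_a_at and 1422441_x_at were lost, and that at 1422440_at was kept. The L-Myc calls at 1422439_a_at and 1422441_x_at were also lost without preSC 3, in the fit of the 2 groups and with the replicate number as a block. The probe set named x_at can share probes with related transcripts.

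Cdk6, the second D-cyclin partner, had 3 probe sets at 3.79 to 5.12, all below the array's 40th percentile on all 9 arrays. The widest range over the arrays at one of them was 0.69. No change was tested for it.

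The D-type cyclins differed in detection. The 7 Ccnd2 probe sets read 3.23 to 5.13 and passed the filter on no array, and the widest range over the 9 arrays was 0.70. The 3 Ccnd1 probe sets were near the filter: 1417419_at passed it on 7 arrays, 1417420_at on 3 and 1448698_at on 7. Their changes lay between -0.21 and 0.24 over the 3 viruses, and none was called. On 1417420_at the L-Myc arrays stood far apart, at 5.82 and 4.52, while the C-Myc arrays read 5.21 and 4.98, the N-Myc arrays 5.50 and 5.17, and preSC 5.25, 5.62 and 4.43. Near the filter, a probe set gives little information on a change.

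Ccnd3, the third D-type cyclin, was detected best by 1415907_at. It read 7.59 and 7.25 with L-Myc, 8.14 and 7.20 with C-Myc, and 8.25 and 8.17 with N-Myc, against 7.19, 6.96 and 7.19 in preSC. Both N-Myc arrays and C-Myc 1 were high, and C-Myc 2 lay just above the highest preSC array. The changes were 0.31 (SE 0.27, adjusted p = 0.440, limma) with L-Myc, 0.56 (SE 0.27, adjusted p = 0.149) with C-Myc and 1.10 (SE 0.27, adjusted p = 0.0165) with N-Myc, a 2.15-fold rise in the N-Myc group. Without C-Myc 2, the C-Myc change was 1.03 (limma adjusted p = 0.00906), and without C-Myc 1 it was 0.09. Without preSC 2 the N-Myc change was 1.02 (limma adjusted p = 0.0549). The other Ccnd3 probe sets, 1438805_at and 1444323_at, changed by -0.12 and 0.01 with N-Myc and were not called, so the probe sets of this gene disagree. The genes whose arrays lay closest to this pattern over all 9 arrays, after centring, were Rbm19 (root mean square difference 0.10) and Mrpl42 (0.12).

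Ccne1 encodes cyclin E1, which works with CDK2 after the D-type cyclins. Its probe set 1416492_at read 9.32 and 8.66 with L-Myc, 9.30 and 8.46 with C-Myc, and 9.34 and 9.32 with N-Myc, against 8.97, 8.93 and 8.49 in preSC. L-Myc 2 and C-Myc 2 lay within the preSC arrays or just below them, while the other 4 transduced arrays lay above. No change was called, and the N-Myc one was 0.53 (SE 0.30, adjusted p = 0.201, limma). The second Ccne1 probe set, 1441910_x_at, changed by -0.09, -0.20 and 0.09 with L-Myc, C-Myc and N-Myc, none of which was called.

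**Figure D2:**
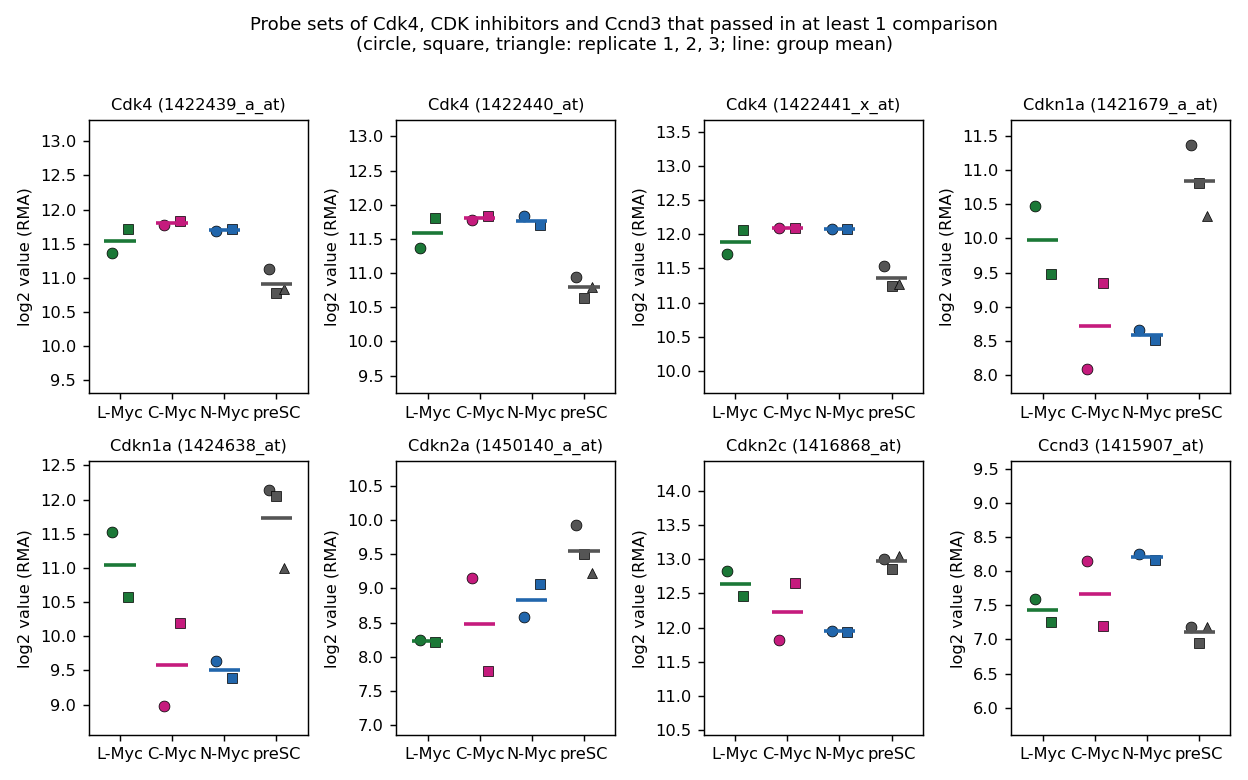
Log2 RMA level on each of the 9 arrays for the probe sets called in at least 1 comparison, with L-Myc, C-Myc and N-Myc left of preSC. Points are single arrays and lines are group means. All Cdk4 points of the transduced groups lie above preSC, whereas for Cdkn1a the C-Myc and N-Myc points lie at 8.09 to 10.19, against 10.33 to 12.14 in preSC.

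Cdkn1a encodes p21, the CIP/KIP inhibitor of cyclin-CDK complexes. Its probe set 1424638_at read 11.52 and 10.58 with L-Myc, 8.97 and 10.19 with C-Myc, and 9.63 and 9.38 with N-Myc, against 12.14, 12.05 and 11.00 in preSC. Every C-Myc and N-Myc array was below every preSC array, L-Myc 1 lay inside the preSC range, and preSC 3 was the lowest preSC array. The means were 11.05 ± 0.66 with L-Myc, 9.58 ± 0.86 with C-Myc and 9.51 ± 0.17 with N-Myc (SD, n = 2 each), against 11.73 ± 0.63 in preSC (SD, n = 3). The changes were -0.68 (SE 0.48, adjusted p = 0.353, limma) with L-Myc, -2.15 (SE 0.48, adjusted p = 0.0139) with C-Myc and -2.22 (SE 0.48, adjusted p = 0.0110) with N-Myc.

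The second Cdkn1a probe set, 1421679_a_at, read 10.48 and 9.47 with L-Myc, 8.09 and 9.34 with C-Myc, and 8.66 and 8.51 with N-Myc, against 11.37, 10.81 and 10.33 in preSC. The order of the groups was the same as at the first. The changes were -0.86 (SE 0.46, adjusted p = 0.220, limma) with L-Myc, -2.12 (SE 0.46, adjusted p = 0.0125) with C-Myc and -2.25 (SE 0.46, adjusted p = 0.00895) with N-Myc. Without C-Myc 1 the C-Myc changes of the 2 probe sets were -1.50 and -1.54 with limma adjusted p of 0.0693 and 0.0806, and without C-Myc 2 both were -2.75. C-Myc 1 resembled the N-Myc arrays here, and C-Myc 2 resembled L-Myc 2. The patterns closest to 1424638_at over the 9 arrays were those of Nrip3 (root mean square difference 0.23) and Endod1 (0.28).

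Cdkn1b encodes p27, the other CIP/KIP inhibitor among the members. The brighter probe set, 1434045_at, read 12.44 and 12.23 with L-Myc, 11.87 and 12.39 with C-Myc, and 12.02 and 12.25 with N-Myc, against 12.16, 12.27 and 11.93 in preSC. All 3 groups overlapped preSC. The changes were 0.22, 0.01 and 0.02 (SE 0.20), and the 95% interval with N-Myc ran from -0.44 to 0.48, so a change of the size seen for Cdkn1a with N-Myc lies outside it. The dimmer probe set 1419497_at changed by 0.04, -0.15 and 0.06 (SE 0.31) and was not called.

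Cdkn2a encodes the INK4 inhibitor p16Ink4a and Arf. Its 1 probe set, 1450140_a_at, read 8.24 and 8.21 with L-Myc, 9.16 and 7.79 with C-Myc, and 8.59 and 9.07 with N-Myc, against 9.93, 9.50 and 9.22 in preSC. Every transduced array was below every preSC array, by little for C-Myc 1. The change was -1.32 (SE 0.39, adjusted p = 0.0480, limma) with L-Myc, or 2.50-fold lower, -1.08 (SE 0.39, adjusted p = 0.0746) with C-Myc and -0.72 (SE 0.39, adjusted p = 0.189) with N-Myc. The L-Myc call was close to the threshold, and without L-Myc 1 or L-Myc 2 the limma adjusted p was 0.140 or 0.160, and without preSC 1, 2 or 3 it was 0.132, 0.108 or 0.0575. Without C-Myc 1 the C-Myc change was -1.76 (limma adjusted p = 0.0117). The positions of the probes were not analysed here, so the 2 products are not told apart. The closest patterns were those of Slc35f3 (root mean square difference 0.24) and Lmnb1 (0.24).

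Cdkn2c encodes p18, an INK4 inhibitor of CDK4 and CDK6, and its 1 probe set is 1416868_at. It read 12.83 and 12.46 with L-Myc, 11.82 and 12.65 with C-Myc, and 11.96 and 11.93 with N-Myc, against 13.01, 12.85 and 13.05 in preSC. The N-Myc arrays and C-Myc 1 were low, C-Myc 2 and L-Myc 2 were intermediate, and all transduced arrays lay below all preSC arrays, L-Myc 1 by little. The change was -0.33 (SE 0.25, adjusted p = 0.384, limma) with L-Myc, -0.74 (SE 0.25, adjusted p = 0.0564) with C-Myc and -1.03 (SE 0.25, adjusted p = 0.0158) with N-Myc. Without C-Myc 2 the C-Myc change was -1.16 (limma adjusted p = 0.00556), and without C-Myc 1 it was -0.32. The closest patterns were those of Irf2 (root mean square difference 0.09) and Mindy2 (0.10).

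**Figure D3:**
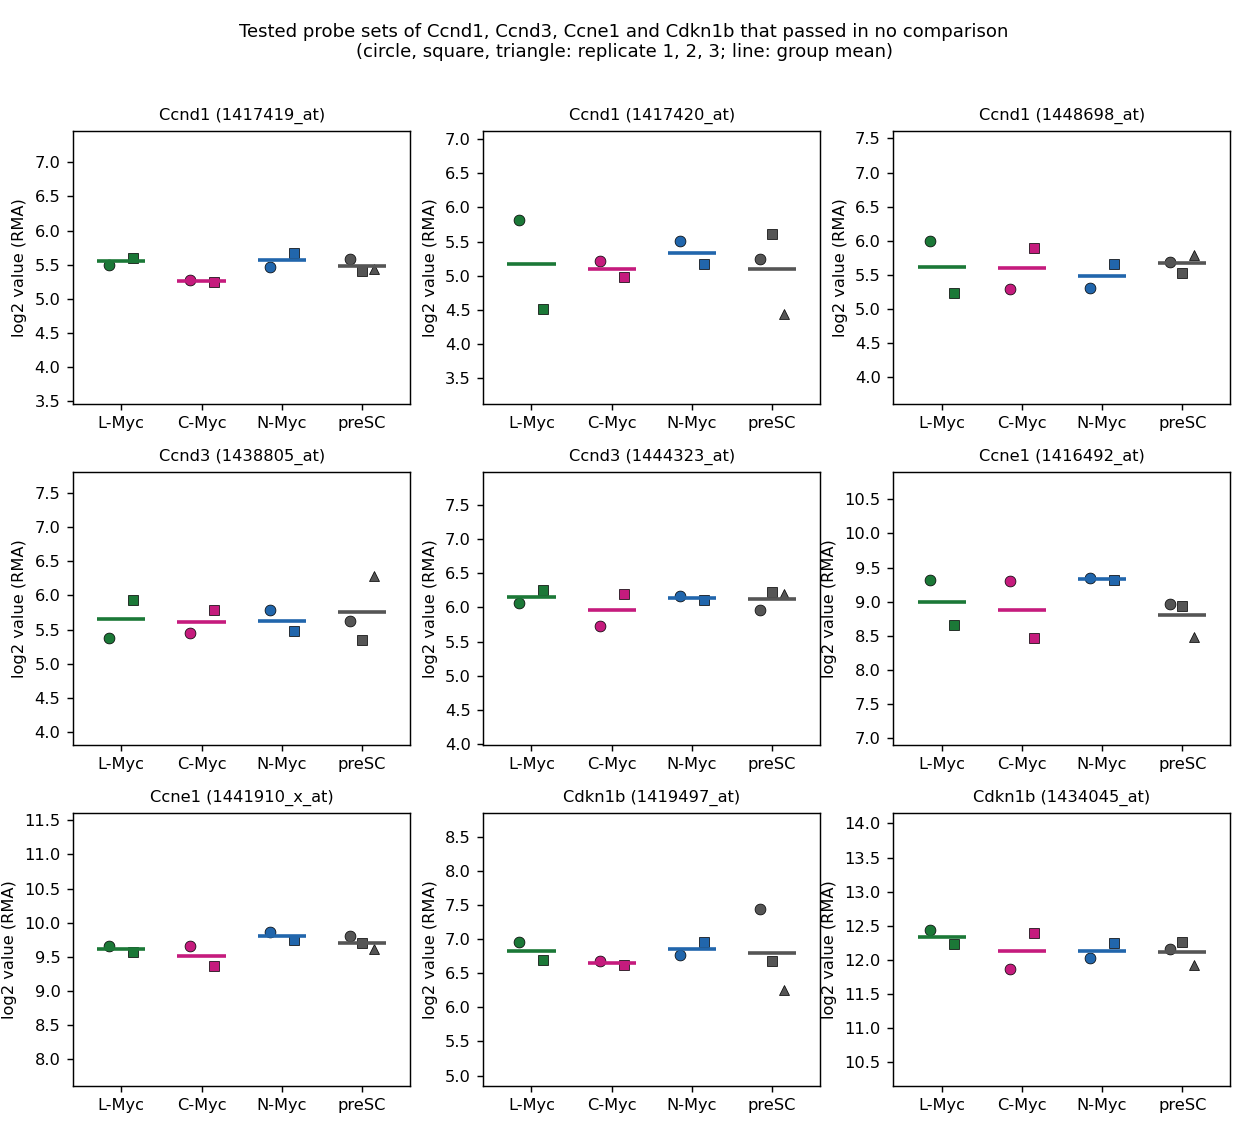
Log2 RMA level on each array for the tested probe sets called in no comparison, with L-Myc, C-Myc and N-Myc left of preSC. Points are single arrays and lines are group means. The groups overlap in most panels, among them Cdkn1b, whose brighter probe set reads 11.87 to 12.44 on all arrays.

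The calls of the other members were also sensitive to averaging of the close arrays within preSC and within N-Myc. Averaging leaves fewer arrays, with 1 for N-Myc, so whether closeness or the smaller number removed the calls was not tested. The L-Myc array and the C-Myc array that lay close to each other were not averaged. With the close pairs averaged, no call of Cdkn1a, Cdkn2a, Cdkn2c or Ccnd3 passed: the limma adjusted p was 0.0834 and 0.0960 for Cdkn1a with C-Myc, 0.143 and 0.166 for Cdkn1a with N-Myc, 0.177 for Cdkn2c with N-Myc, 0.187 for Ccnd3 with N-Myc and 0.180 for Cdkn2a with L-Myc. With 1 N-Myc array left out, whichever it was, the limma adjusted p of the N-Myc calls was 0.0578 to 0.0794 for Cdkn1a, 0.0875 and 0.0931 for Cdkn2c and 0.0840 and 0.101 for Ccnd3. The directions did not change in these settings.

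Between the viruses, no member probe set was called: 0 of 17 in L-Myc minus C-Myc (background 0% higher and 0% lower), 0 of 17 in L-Myc minus N-Myc (background 0% higher and 0% lower) and 0 of 17 in C-Myc minus N-Myc (background 0% higher and 0.00343% lower, 1 probe set). At an unadjusted limma p under 0.05 they numbered 2, 4 and 0 of 17, against 4.60%, 18.7% and 4.41% of all tested probe sets. The largest differences were those of Cdkn1a 1424638_at, at 1.47 (SE 0.52, adjusted p = 0.858, limma) in L-Myc minus C-Myc and 1.54 (SE 0.52, adjusted p = 0.191) in L-Myc minus N-Myc. The L-Myc arrays lay above both other groups at that probe set. Cdkn2c was 0.70 higher in L-Myc than in N-Myc (SE 0.27, adjusted p = 0.226, limma) and the difference at Ccnd3 1415907_at was -0.79 (SE 0.29, adjusted p = 0.216). With both C-Myc arrays left out, chosen after the data were seen, these differences of Cdkn2c and Ccnd3 passed, as did 2462 of all 29160 tested probe sets. So the call of Cdkn1a with C-Myc and N-Myc and its absence with L-Myc is no called difference between the viruses in the fit of all arrays. L-Myc also differs from C-Myc and N-Myc by RNA label, so virus and label cannot be told apart in any L-Myc difference given here. With L-Myc 2 and C-Myc 2 both left out, chosen after the data were seen, Cdkn1a 1421679_a_at was 2.38 higher in L-Myc than in C-Myc (limma adjusted p = 0.0442) and Cdkn2c 1.01 higher (0.0453).

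Over single arrays, the 27 member probe sets were counted beside all 45037 probe sets without controls. No member probe set differed over 2-fold between L-Myc 2 and C-Myc 2 (41 of all). None did between C-Myc 1 and either N-Myc array (193 and 182 of all). Between C-Myc 1 and 2, 3 members did (3032 of all), and between L-Myc 1 and 2, 2 did (2249 of all). With so few members, these counts tell nothing of the members apart from all probe sets. The largest C-Myc gap was 1.37, at Cdkn2a, and the largest L-Myc gap was 1.30, at Ccnd1.

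The remaining genes of the pathway were read at the brightest probe set of each gene. Of the probe sets that stand for a gene, 6.81% were called higher and 10.1% lower with L-Myc, 10.7% and 15.1% with C-Myc, and 13.3% and 17.5% with N-Myc. The median change over them was -0.04 with L-Myc, -0.05 with C-Myc and -0.03 with N-Myc. Of the 3 other CDK inhibitors, 1 was called lower with L-Myc and 2 each with C-Myc and N-Myc, and the medians were -0.41, -1.24 and -1.29. Cdkn2b, the INK4 inhibitor p15, read 5.52 and 6.02 with L-Myc, 5.41 and 6.16 with C-Myc, and 6.09 and 5.88 with N-Myc, against 7.14, 7.05 and 7.65 in preSC. It fell in all 3 groups, with changes of -1.51, -1.49 and -1.29 (SE 0.29, limma adjusted p = 0.00968, 0.00793 and 0.0121). Cdkn2d, the INK4 inhibitor p19, changed by -0.41 with L-Myc, which was not called, and fell with C-Myc (change -1.24, SE 0.32, limma adjusted p = 0.0239) and N-Myc (change -1.30, limma adjusted p = 0.0177). Cdkn1c, the CIP/KIP inhibitor p57, read 8.67 and 10.03 with L-Myc, 7.15 and 9.77 with C-Myc, and 7.81 and 7.73 with N-Myc, against 7.61, 7.88 and 8.24 in preSC, and was not called. L-Myc 2 and C-Myc 2 stood high together for Cdkn1c.

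**Figure D4:**
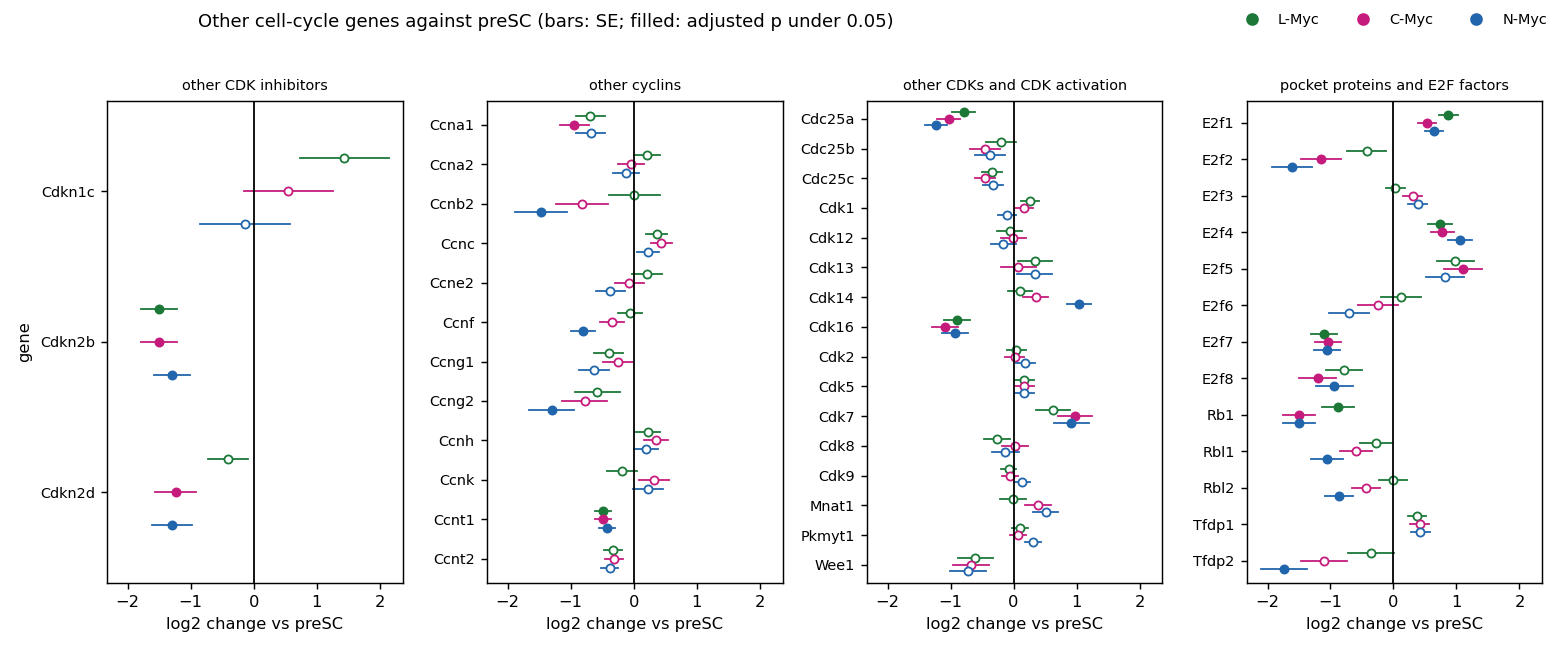
Log2 change against preSC with its SE for genes of the related lists, in panels by list, with markers for L-Myc, C-Myc and N-Myc. Filled markers passed the adjusted p threshold of 0.05. The CDK inhibitors Cdkn2b and Cdkn2d lie left of 0, and Rb1 and E2f7 lie left of 0 with all 3 viruses.

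Of the 13 pocket protein and E2F genes, 2 were higher and 2 lower with L-Myc, 3 and 4 with C-Myc, and 2 and 7 with N-Myc, with medians of -0.00, -0.43 and -0.86. Rb1, whose conditional allele was deleted in all groups, read 11.59 and 10.87 with L-Myc, 10.49 and 10.73 with C-Myc, and 10.77 and 10.45 with N-Myc, against 12.17, 12.34 and 11.83 in preSC. It fell in all 3 groups, with changes of -0.88, -1.50 and -1.50 (limma adjusted p = 0.0436, 0.00512 and 0.00459), and whether its probes lie in the deleted part was not analysed here. E2f1, an activating E2F, rose by 0.87, 0.53 and 0.65 (limma adjusted p = 0.00606, 0.0305 and 0.0130), but its second probe set changed by 0.08, -0.36 and -0.43 and was not called. E2f4, a repressive E2F, rose by 0.74, 0.78 and 1.06 (limma adjusted p = 0.0276, 0.0186 and 0.00533). E2f7, an atypical repressive E2F, fell, with changes of -1.10, -1.04 and -1.06 (limma adjusted p = 0.00966, 0.00940 and 0.00785). E2f2, an activating E2F, changed by -0.43 with L-Myc, which was not called, and fell with C-Myc and N-Myc, with changes of -1.15 and -1.61 (limma adjusted p = 0.0280 and 0.00722), and its second probe set was called lower with the same 2 viruses. Tfdp2, a dimer partner of E2F proteins, fell with N-Myc, with a change of -1.74 (limma adjusted p = 0.00980), and E2f5 rose by 1.10 with C-Myc (limma adjusted p = 0.0288). E2f8 fell with C-Myc and N-Myc, with changes of -1.20 and -0.94 at its brightest probe set (limma adjusted p = 0.0183 and 0.0390), but its other one rose by 2.43 and 2.85, so its direction is uncertain.

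Among 12 of 13 other cyclins measured, 0 were higher at the brightest probe set with any virus. With L-Myc, C-Myc and N-Myc, 1, 2 and 4 were lower. Other probe sets were called higher with all 3 viruses for Ccna2 (1.09, 1.01 and 0.90) and Ccng1 (1.37, 1.58 and 1.26). So was 1 probe set each of Ccnc (1.85, 2.09 and 2.01) and Ccnt2 (1.17, 1.03 and 0.67), but another of each was called lower with all 3. The brightest probe sets of Ccna2 (0.21, -0.04 and -0.12) and Ccng1 (-0.40, -0.25 and -0.63) were not called, so the probe sets of these genes disagree. With N-Myc the mitotic cyclin Ccnb2 fell, with a change of -1.47 (SE 0.41, limma adjusted p = 0.0284), and so did Ccnf, with a change of -0.80 (SE 0.19, limma adjusted p = 0.0151). Ccng2 also fell with N-Myc, with a change of -1.30 (limma adjusted p = 0.0269), but its other probe set rose by 1.31 with L-Myc and 1.11 with C-Myc. Ccna1 fell with C-Myc, with a change of -0.94 (limma adjusted p = 0.0202). Ccnt1 was lower with all 3 viruses at its brightest probe set, with changes of -0.49, -0.48 and -0.42, but another of its probe sets rose by 2.77, 2.84 and 2.93. Among 16 other CDK and CDK activation genes, 0, 1 and 2 were higher and 2 each lower at the brightest probe set. Elsewhere, Wee1 1416774_at was called higher with all 3 viruses (1.35, 1.05 and 1.00), and Cdk12 1425556_at and 1455567_at were called lower with all 3. The phosphatase Cdc25a, which activates CDKs, fell, with changes of -0.79, -1.03 and -1.23 at its brightest probe set (limma adjusted p = 0.0190, 0.00575 and 0.00266), while another probe set rose by 1.40 with L-Myc and 0.88 with C-Myc. Cdk16 fell, with changes of -0.90, -1.09 and -0.93, but another of its probe sets rose by 2.11, 1.94 and 2.04. Cdk7, part of the CDK-activating kinase, rose by 0.97 with C-Myc and 0.92 with N-Myc at its brightest probe set. Its probe set 1424257_at was also called higher there (0.86 and 0.89), and 1439511_at was called lower, with changes of -0.62 and -0.81. Cdk14 rose by 1.04 with N-Myc (limma adjusted p = 0.00634), and its 2 other probe sets were also called higher there. Among 15 of 16 measured turnover genes 1 was lower with each virus, Cul1, a scaffold of SCF ubiquitin ligases, with changes of -0.59, -0.60 and -0.45. Other probe sets of Dtl (1443864_at, 1.77, 1.53 and 1.51) and Cul4b (1417453_at, 0.86, 0.81 and 0.64) were called higher with all 3 viruses. Skp2, the ligase subunit that marks p27 for breakdown, changed by -0.25, -0.04 and -0.30 at its brightest probe set, which was not called. Another Skp2 probe set, 1449293_a_at, was called higher with all 3 viruses, with changes of 1.09, 1.37 and 1.10 (limma adjusted p = 0.00541, 0.00182 and 0.00381), and its remaining 4 were not called, so its probe sets disagree.

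Other known p53 targets were read beside Cdkn1a, although the conditional p53 allele was deleted in all groups. Of 15 tested genes, 1 was higher and 2 lower with L-Myc, 3 and 1 with C-Myc, and 3 and 3 with N-Myc, with medians of -0.23, -0.15 and -0.20. Bbc3, which encodes the apoptosis factor Puma, rose by 0.57, 0.61 and 0.68 (limma adjusted p = 0.0182, 0.0119 and 0.00684). Mdm2, the p53 ubiquitin ligase, changed by 0.49 with L-Myc, which was not called, and rose by 0.53 with C-Myc and 0.58 with N-Myc (limma adjusted p = 0.0404 and 0.0261). Its other probe set rose by 1.70, 1.93 and 1.89 with L-Myc, C-Myc and N-Myc (limma adjusted p = 0.000669, 0.000401 and 0.000426). Aen, an apoptosis-enhancing nuclease, changed by 0.65 with L-Myc, which was not called. It rose by 0.99 with C-Myc and 1.33 with N-Myc (limma adjusted p = 0.0463 and 0.0148). Its 3 other probe sets were also called higher with C-Myc and N-Myc, and 1450506_a_at with L-Myc as well (1.62, limma adjusted p = 0.00938). Ccng1 1450016_at (1.37, 1.58 and 1.26) and Rrm2b 1437476_at (1.09, 1.49 and 1.86) were called higher with all 3 viruses. Rrm2b 1437221_at and 1437222_x_at were not called. Ddit4 fell with L-Myc, with a change of -0.84 (limma adjusted p = 0.0260). Trp53inp1 fell, with changes of -1.73, -1.78 and -1.59 (limma adjusted p = 0.00187, 0.00137 and 0.00193) at its brightest probe set, while its other one changed by 0.06, -0.06 and 0.20 and was not called. Proliferation markers numbered 9 tested, of which 0 were called with L-Myc, 2 were lower with C-Myc (Mcm2 and Mcm5) and 1 was lower with N-Myc (Top2a), each at its brightest probe set. Other probe sets differed: Mcm5 1415945_at was called higher with L-Myc (1.02) and N-Myc (1.34) and was 0.88 with C-Myc, Mcm2 1448777_at was called higher with N-Myc (0.60), and Bub1 1438571_at was called higher with L-Myc (0.72) and C-Myc (0.45). Aurka 1440129_at and the second Top2a probe set were called lower with N-Myc (-1.01 and -0.89). The mean level of the 9 brightest probe sets was 11.64 to 11.79 with L-Myc, 11.54 to 11.60 with C-Myc and 11.54 to 11.58 with N-Myc, against 11.62 to 11.81 in preSC.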

How the data were processed

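The 9 arrays were Affymetrix Mouse430_2. The authors deposited 1 log2 value for each array at every probe set. Per the submitters' processing notes, affy in R 3.0.1 computed them by RMA. RMA brings all arrays to a common distribution, so a change of all transcripts in 1 direction would be lost, and it compresses differences between dim probe sets. Its version, not given in the sources used here, is unknown. Array medians lay between 6.02 and 6.07, and no further scaling was applied. The number of arrays limits the precision. The labels' design text calls the arrays biological replicates, and no label says they came from separate cultures, so p-values measure the spread between these arrays, which may be technical.

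Probe sets were named from the platform annotation: 34945 had 1 symbol, 932 had several and 9211 had none listed, and 64 controls were left out. All 27 member probe sets matched RefSeq by Entrez identifier. A probe set was tested if it was above the array's 40th percentile (5.28 to 5.34) in at least 2 of 9 arrays, which left 29160. Group means of all 9 arrays were fitted with limma 3.58.1 in R 4.3.3 (lmFit and eBayes, 5 residual degrees of freedom), two-sided, with Benjamini-Hochberg adjustment over all tested probe sets and a threshold of 0.05. The procedure was run on simulated data with independent arrays, for L-Myc minus preSC, so the closeness of some real arrays was not covered. Other genes named are those of lists of related genes, read at the brightest tested probe set, up to 4 per list and comparison by size of change among those called; genes most alike a member are the 2 with the smallest root mean square difference of centred values over 9 arrays, for members whose group means span at least 1 log2 unit. Skp2, Cdkn1c, the virus transcripts and the marker genes are given as checks or values. The members and lists were chosen with earlier results of these data known. RefSeq promoters were searched for motifs on both strands. Alternatives were other normalizations and filters, the brightest probe set per gene, fits of the 2 groups alone, averaging of close arrays, the replicate number as a block and leaving out arrays.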

Additional observations from a re-analysis of the deposited data

How the results depend on the processing

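Over 20 settings and 102 member results (17 probe sets in 6 comparisons, 16 called), all 300 alternative values of the called results kept their direction, and 61 no longer passed the threshold. Only the C-Myc calls of Cdk4 at 1422439_a_at and 1422440_at passed in every setting that included them. Neither is the brightest Cdk4 probe set, so the setting with 1 probe set per gene did not include them. The brightest, 1422441_x_at, lost its C-Myc call only with the close arrays averaged. Of 1554 alternative values of results not called, 15 passed. The number of called member probe sets was 4 with L-Myc, 5 with C-Myc and 7 with N-Myc against preSC. It was 0, 2 and 4 with only the brightest probe set of each gene, which tests fewer probe sets, and 0, 2 and 0 with preSC 1 and 2, and N-Myc 1 and 2, averaged, which leaves fewer arrays. With only the 2 groups compared it was 2 for L-Myc. Leaving out 1 array at a time gave 0 to 4 for L-Myc, 4 to 7 for C-Myc, 1 to 7 for N-Myc, 0 to 0 for L-Myc minus C-Myc, 0 to 2 for L-Myc minus N-Myc and 0 to 0 for C-Myc minus N-Myc. Settings added after the data were seen gave 1 for L-Myc and 2 for L-Myc minus C-Myc with L-Myc 2 and C-Myc 2 left out, and 2 for L-Myc minus N-Myc with both C-Myc arrays left out. The causes were not tested.

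With the replicate number as a block, the counts were 1 for L-Myc, 5 for C-Myc, 6 for N-Myc and 0 between the viruses, and the N-Myc change of Cdkn2c was -0.99 (limma adjusted p = 0.0506). The groups share only numbers 1 and 2. Deviations of same-numbered arrays correlated at 0.42 between L-Myc and C-Myc, 0.0985 between L-Myc and N-Myc and 0.0799 between C-Myc and N-Myc over probe sets. They correlated at 0.54 for preSC 1 and L-Myc 1 but at -0.57 for preSC 2 and L-Myc 2. In a group of 2 arrays the deviations are equal and opposite, and preSC 1 and 2 were close to each other. These correlations therefore cannot decide whether the numbers pair the samples.

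Over all tested probe sets, 6424 were called with L-Myc, 8647 with C-Myc and 10107 with N-Myc. These became 1827, 2822 and 355 with close arrays averaged, 1749, 3053 and 3745 of 12993 with 1 probe set per gene, 3350 without L-Myc 2 and 3779 without N-Myc 1. Between L-Myc and N-Myc, 0 became 669 in the fit of those 2 groups and 2462 without C-Myc arrays. Between L-Myc and C-Myc, 0 became 1180 without C-Myc 2 and 1386 without L-Myc 2 and C-Myc 2, and between C-Myc and N-Myc, 1 became 852 without C-Myc 1. Groups of 2 arrays limit what can be told between the viruses, and a miss of the threshold does not show equal levels.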
